A study of Mus musculus with 2 samples.

Results

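The Gimap genes encode GTPases of immunity-associated proteins, a family of small GTP-binding proteins known from lymphocytes, and they were described here in whole bone marrow of 1 mouse with the Srsf2 P95H change and 1 Srsf2 WT mouse. The members are the rows of the deposited table whose symbol begins with Gimap, 9 of 12860 genes: the protein-coding Gimap1, Gimap3, Gimap4, Gimap5, Gimap6, Gimap7, Gimap8 and Gimap9, and Gimap1os, a non-coding gene on the strand opposite Gimap1. The P95H mouse carried the change on 1 Srsf2 allele and was a 14-week-old female, and the WT mouse was a 12-week-old male. Both were of C57BL/6 background, carried CreERT2 at the Rosa26 locus and received tamoxifen in vivo, so neither was untreated. The Rosa26 locus is active in most cell types, so the change was not restricted to blood cells by the Cre. Srsf2 is a splicing factor of the SR family, and the comparison asks what its mutant form does to marrow transcripts. Genotype, sex, age and individual cannot be told apart with 1 mouse per group, and no difference has a replicate check or a p-value. The members were chosen by symbol after their counts and CPM in these libraries had been seen, so their values are given as a description.

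GIMAP proteins sit on the membranes of organelles such as lysosomes, mitochondria and lipid droplets, where they are known mainly for keeping resting lymphocytes alive. Loss of Gimap5 causes a shortage of T cells in rats and of several lymphocyte classes in mice, and mouse T cells need Gimap1 and Gimap6 for survival outside the thymus. The genes lie side by side in a single cluster, on chromosome 6 in the mouse.

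Gimap transcripts were lower in P95H marrow, with ratios of CPM, P95H over WT, from 0.283 to 0.423 for 8 members and 0.893 for Gimap9. Summed over the 9 rows P95H marrow gave 1897 reads and WT marrow 6272. In CPM, reads divided by the authors' scaled library size, this was 47.8 in P95H marrow and 131 in WT marrow. The ratio of the sums was 0.365, with a 95% counting interval of 0.346 to 0.384. Such intervals are exact, conditional on the summed counts, and cover counting error only. Of 42366695 listed reads in P95H marrow the family held 0.00448% (exact binomial interval 0.00428 to 0.00468), and of 44733445 in WT marrow 0.0140% (0.0137 to 0.0144).

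Every difference quoted is log2(CPM + 1) in P95H less that in WT, a scale that shrinks differences of weakly expressed genes, and a gene counts as lower by 2-fold or more from -1 downward. On this scale 5 of the 9 members were lower by 2-fold or more, against 2.1% of all 12860 genes. By the same size 0 members were higher, against 1.76% of all genes. At 1.5-fold 8 members were lower, against 8.08% of all genes. The members' median difference was -1.18 (range -1.71 to -0.15), where the median of all genes was -0.0035. By the plain CPM ratio 8 of the 9 members were at or below 0.5, against 4.99% of all genes. The counting interval lay wholly below 0.5 for 6 members (2.31% of all genes) and wholly below 1 for 8 (32.8% of all genes). Fewer cells of a type and less RNA per cell cannot be told apart in unsorted marrow.

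**Figure D1:**
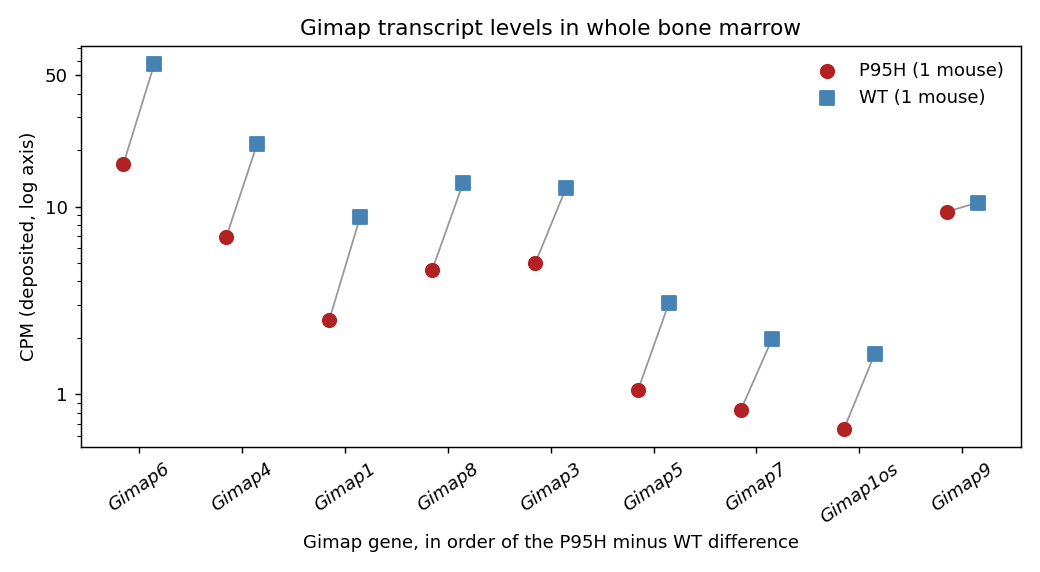
Deposited CPM (log axis) of each Gimap gene in P95H marrow (circles) and WT marrow (squares), 1 mouse each, ordered by the difference on log2(CPM + 1). The P95H point lies below the WT point for every gene shown, and the gap is narrowest for Gimap9 (9.40 CPM in P95H, 10.5 CPM in WT).

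Gimap6, Gimap1 and Gimap5 are the members known for lymphocyte survival. Gimap6, which binds the autophagy protein Gabarapl2, had 669 reads in P95H marrow and 2749 in WT marrow, that is 16.9 CPM in P95H and 57.4 CPM in WT, giving a ratio of 0.294 (0.269 to 0.320). Its difference of -1.71 was the lowest of the family and ranked 51st from the bottom among 12860 genes. Gimap1, needed in mice by mature T and B cells, had 99 reads in P95H marrow and 422 in WT marrow, a ratio of 0.283 (0.225 to 0.353), and differed by -1.49. Gimap5, a protein of lysosomes in T cells, had 42 reads in P95H marrow and 147 in WT marrow, a ratio of 0.345 (0.239 to 0.489). Its interval lay below 0.5, yet its difference of -0.98 missed the 2-fold size on a scale that shrinks low values, at 1.06 CPM in P95H and 3.07 CPM in WT.

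Gimap4, which speeds the death of T cells once it has begun, had 274 reads in P95H marrow and 1036 in WT marrow, a ratio of 0.319 (0.278 to 0.365), and differed by -1.52. Gimap8, the longest protein of the family, with more than one GTPase domain, had 183 reads in P95H and 639 in WT, a ratio of 0.345 (0.291 to 0.408), and differed by -1.35. Gimap3, a close relative of Gimap5 that influences mitochondrial DNA segregation in mice, had 198 reads in P95H marrow and 602 in WT marrow, a ratio of 0.397 (0.336 to 0.467), and differed by -1.18. The intervals of Gimap1, Gimap6, Gimap4, Gimap5 and Gimap8 all overlap one another, and no difference among these members was tested.

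The lowest counts belonged to Gimap7 and Gimap1os. Gimap7, which in its human form hydrolyses GTP as a dimer, had 33 reads in P95H marrow and 94 in WT marrow, a ratio of 0.423 (0.276 to 0.636), and differed by -0.69. Gimap1os had 26 reads in P95H and 79 in WT, a ratio of 0.397 (0.245 to 0.625), and differed by -0.68. Both upper bounds lie above 0.5, so a change smaller than 2-fold lies within counting error for them. The sources used here do not say whether counting used strand, and Gimap1os and Gimap1 overlap on opposite strands, so their reads may be mixed.

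Gimap9 stood apart from the other members. It had 373 reads in P95H marrow and 504 in WT marrow, that is 9.40 CPM in P95H and 10.5 CPM in WT, with a ratio of 0.893 (0.779 to 1.02), a difference of -0.15. With plain totals of the listed counts the ratio was 0.781 (0.682 to 0.895), and with totals that leave out haemoglobin and the most abundant genes it was 0.811 (0.707 to 0.929), so whether its interval holds 1 depends on the scaling. Its position relative to the rest of the family needs no scaling. Gimap9 took 19.7% of the family's reads in P95H marrow (exact binomial interval 17.9 to 21.5) and 8.04% in WT marrow (7.37 to 8.74). Its ratio of counts over that of the other 8 members was 2.80 (2.41 to 3.25), counting error only. Gimap6 took a smaller share in P95H, with 35.3% of the family's reads in P95H marrow (33.1 to 37.5) and 43.8% in WT marrow (42.6 to 45.1). Without Gimap9, the family's summed CPM was 38.4 in P95H marrow and 120 in WT marrow, a ratio of 0.319 (0.301 to 0.337).

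**Figure D2:**
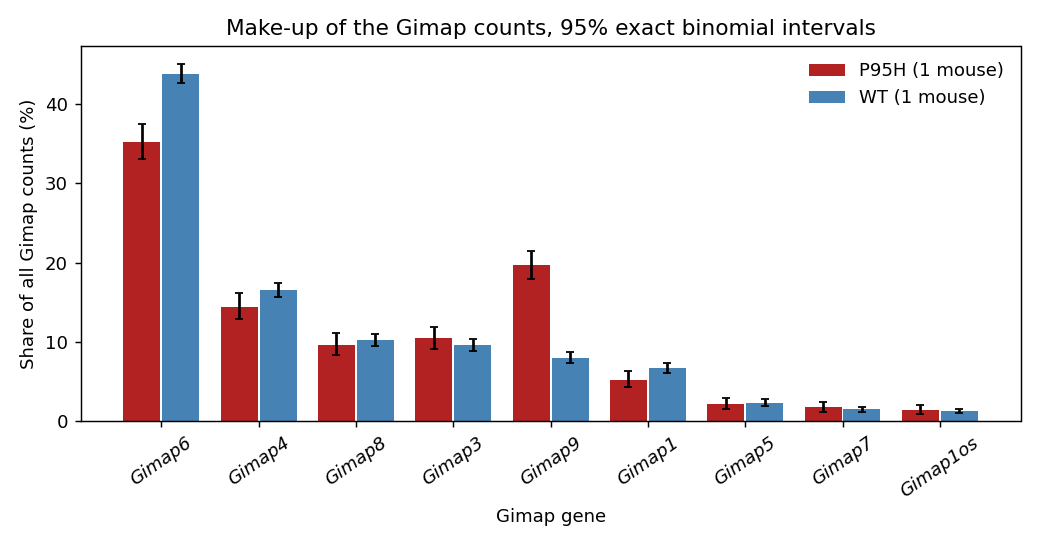
Share of all Gimap counts (%) held by each gene in P95H marrow (left bar of each pair) and WT marrow (right bar), with 95% exact binomial intervals, 1 mouse each. Gimap9 holds 19.7% in P95H and 8.04% in WT, while Gimap6 holds 35.3% in P95H and 43.8% in WT.

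Divided by exon length in GENCODE M21, the order of levels within the family differed between the libraries. In P95H marrow Gimap9 had 5.72 CPM per kb, Gimap6 4.82 and Gimap4 3.76, whereas in WT marrow Gimap6 had 16.4 CPM per kb, Gimap4 11.8 and Gimap9 6.41. Gimap3 had 1.94 CPM per kb in P95H and 4.88 in WT, and Gimap8 had 1.25 in P95H and 3.61 in WT. The lowest levels per length were those of Gimap1 (0.812 in P95H, 2.87 in WT), Gimap7 (0.358 in P95H, 0.844 in WT), Gimap5 (0.255 in P95H, 0.740 in WT) and Gimap1os (0.211 in P95H, 0.532 in WT). The exon lengths join all annotated transcripts of a gene, and the authors' annotation may differ.

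Reads can be hard to place in this cluster. Gimap3 and Gimap5 shared 83 windows of 75 bases, the read length, in their annotated transcripts, with a longest identical stretch of 140 bases, and no other pair of protein-coding members shared a window. The predicted gene Gm28053 runs across Gimap7, Gimap1 and Gimap5 in this annotation, and shared 124 windows with Gimap1, 80 with Gimap5 and 7 with Gimap7. The sources used here do not say how reads that match several genes were counted, which makes the counts of these 4 genes uncertain. Gimap9, Gimap6, Gimap4 and Gimap8 shared no window with another member or with Gm28053.

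Of the 6 measured genes flanking the cluster in the RefSeq gene order, 3 on each side, 0 reached the 2-fold size. Of all 12860 genes, 12364 did not reach it either. The interval lay wholly below 1 for 1 of the 6 flanking genes and wholly above 1 for another. Tmem176b, a membrane protein of antigen-presenting cells next to Gimap3, had 950 reads in P95H marrow and 980 in WT marrow, a ratio of 1.17 (1.07 to 1.28). Its partner Tmem176a was at a ratio of 1.04 (0.905 to 1.20), and Gpnmb, a macrophage glycoprotein gene, at 0.826 (0.622 to 1.09). On the other side Lrrc61 was at 1.05 (0.869 to 1.27) and Repin1 at 0.843 (0.693 to 1.02). The zinc finger gene Zfp775, next to Gimap8, had 42 reads in P95H marrow and 87 in WT marrow, a ratio of 0.582 (0.393 to 0.851). Within the cluster Gimap9 lies between Gimap8 and Gimap4, both of them at least 2-fold lower.

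**Figure D3:**
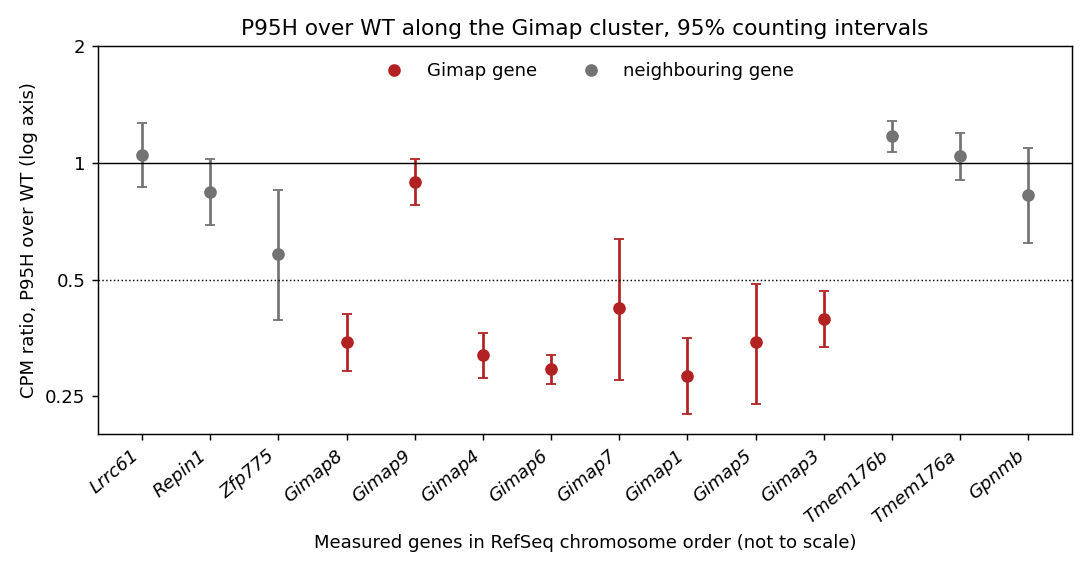
Ratio of CPM, P95H over WT (log axis), for the measured genes along the Gimap cluster in chromosome order, with 95% counting intervals. The Gimap genes (red) other than Gimap9 lie between 0.283 and 0.423, Gimap9 lies at 0.893, and the neighbours (grey) drawn lie between 0.582 and 1.17. Gimap1os has no entry in the gene order and is not drawn.

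The promoters of Gimap6 and Gimap1, the members with the lowest ratios, are shown beside that of Gimap9, the member that stood apart. Each is the 250 bases before the annotated start, from RefSeq (GRCm38.p6), 5′ to 3′ on the gene's strand. They lie at chr6:48708245-48708494 on the minus strand for Gimap6, chr6:48738797-48739046 on the plus strand for Gimap1 and chr6:48675885-48676134 on the plus strand for Gimap9. Capitals mark exact matches, on either strand, to letters typical of 4 groups of lymphocyte transcription factors.
Gimap6: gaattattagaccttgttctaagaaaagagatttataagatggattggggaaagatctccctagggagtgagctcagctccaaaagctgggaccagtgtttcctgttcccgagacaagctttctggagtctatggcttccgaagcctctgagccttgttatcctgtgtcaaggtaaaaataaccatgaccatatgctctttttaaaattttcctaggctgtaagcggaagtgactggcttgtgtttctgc
Gimap1: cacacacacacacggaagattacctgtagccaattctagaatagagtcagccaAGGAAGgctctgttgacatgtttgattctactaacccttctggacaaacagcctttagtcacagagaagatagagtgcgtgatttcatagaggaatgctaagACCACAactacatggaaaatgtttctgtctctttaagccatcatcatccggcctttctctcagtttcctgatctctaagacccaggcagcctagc
Gimap9: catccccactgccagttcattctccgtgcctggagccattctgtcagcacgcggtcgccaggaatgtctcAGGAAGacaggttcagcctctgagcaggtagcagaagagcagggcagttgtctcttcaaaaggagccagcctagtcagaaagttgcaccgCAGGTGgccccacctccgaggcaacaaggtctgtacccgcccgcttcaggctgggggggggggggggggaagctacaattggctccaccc
The letters searched were TGTGGT (RUNX factors), AGGAAG (ETS factors), CAGGTG (E proteins) and CTTTGA (TCF and LEF factors), each with its reverse complement, and no match overlapped another. RefSeq gave 9 such windows for the 8 protein-coding genes, as Gimap8 has a window for each of 2 starts. The ETS letters were in 7 of the 9 windows, from all genes but Gimap6, against 29.5% of 32851 windows of this length across genes. Only these exact letters were searched. The Gimap6 window holds cggaag, which differs from AGGAAG only at its start, so a window without capitals may still hold a site. The RUNX letters were in those of Gimap4, Gimap7 and Gimap1 (14.0% of all windows), the E protein letters in that of Gimap9 alone among the members (17.2%), and the TCF and LEF letters in 0 (13.8%). The Gimap9 window had a GC content of 61.2%, where the other 8 windows ranged from 43.6% to 55.6%. A match of letters is a description and shows no binding.

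The family was set beside genes of the marrow's lymphocytes, from lists of textbook markers written with earlier results of these data known. Some genes stand in more than one list, 4 of the T cell list and 6 of the pro-B and pre-B list among them. Of 29 measured T cell genes, 4 passed the 2-fold size downward, 0 passed it upward and 25 stayed within it. The median difference of the list was -0.45, and 29 of the 29 lay below 0. The 4 were the adhesion receptor gene Cd2 (546 reads in P95H, 2060 in WT), the cytokine receptor gene Il7r (440 in P95H, 1334 in WT), the transcription factor gene Tcf7 (105 in P95H, 342 in WT) and the receptor constant region gene Trbc1 (14 in P95H, 92 in WT). Their ratios were 0.320 for Cd2 (0.290 to 0.351), 0.398 for Il7r (0.356 to 0.443), 0.370 for Tcf7 (0.295 to 0.462) and 0.184 for Trbc1 (0.0966 to 0.324). Other genes of the T cell receptor complex, chosen after their values were seen, had ratios of 0.535 for Trbc2 (0.408 to 0.697), 0.595 for Cd3e (0.395 to 0.885), 0.614 for Trac (0.434 to 0.861), 0.708 for Cd247 (0.631 to 0.794), 0.717 for Cd3d (0.525 to 0.975) and 0.762 for Cd3g (0.580 to 0.998). Of the T cell genes named here, Cd2, Il7r and Tcf7 thus lay within the range of the 8 Gimap genes other than Gimap9. Trbc1 lay below that range, but exceeds 1 CPM in WT alone (0.353 CPM in P95H, 1.92 in WT). The other receptor complex genes lay above it. Il7r also stands in the pro-B and pre-B list, and Cd2 had 2060 reads in WT where Cd3e had 79. Neither is thus a measure of T cells alone here.

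Both B cell lists had lower medians than the T cell list. For natural killer cells the order depended on the measure. Of 19 natural killer cell genes, 10 passed the 2-fold size downward and 9 stayed within it (median -1.00), but with a CPM of at least 10 in at least 1 library the median was 0.35 over 3 genes, against -0.86 over 5 T cell genes. Perforin (Prf1), which opens pores in target cells, had 31 reads in P95H marrow and 240 in WT marrow, and the transcription factor gene Eomes 34 in P95H and 236 in WT. Most of the 10 exceed 1 CPM in WT alone, Prf1 (0.781 CPM in P95H) and Eomes (0.856 CPM in P95H) among them. As every listed gene exceeds 1 CPM in P95H, WT or both, a lower value was fixed beforehand for those genes. Of 20 mature B cell genes, 17 passed the 2-fold size downward and 3 stayed within it (median -1.76). They were led by the chemokine receptor gene Cxcr5 (135 reads in P95H, 1136 in WT) and the IgM receptor gene Fcmr (329 in P95H, 2223 in WT). Of 19 pro-B and pre-B cell genes, 13 passed it downward and 6 stayed within it (median -1.25), among them the B cell receptor chain gene Cd79a (889 reads in P95H, 3738 in WT) and Pax5 (407 in P95H, 1623 in WT), which sets B cell identity. The Gimap median of -1.18 lay between those of the T cell and mature B cell lists, a placing with no test. With a pseudocount of 0.1 the natural killer median was -1.55 and the Gimap median -1.45, so the order of these 2 depends on the pseudocount.

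Summed levels of these lists were lower in P95H marrow too. The T cell list summed to 128 CPM in P95H and 222 in WT, a ratio of 0.577. The natural killer list summed to 94.7 CPM in P95H and 119 in WT, a ratio of 0.797. Most of its 3758 reads in P95H came from Nkg7 (1949 in P95H, 1830 in WT) and Cd244 (929 in P95H, 708 in WT). These genes, named after their values were seen, had ratios of 1.28 for Nkg7 and 1.58 for Cd244. Both are among the 3 natural killer genes that reached 10 CPM, whereas 17 of the 19 genes differed by less than 0. The mature B cell list summed to 411 CPM in P95H and 1004 in WT, and the pro-B and pre-B list to 605 CPM in P95H and 1278 in WT. Of the genes of these lists 0 had no read in either library. The part of lymphocyte content in the Gimap difference was not tested.

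Lists for other cells of the marrow had medians above the Gimap median of -1.18. Endothelial and stem cells have been reported to carry Gimap transcripts as well. The endothelial list had a median of -0.35, with 19 of 19 within 2-fold (89.2 CPM in P95H, 130 in WT), and the stem and progenitor list -0.39, with 18 of 18 within it (476 CPM in P95H, 606 in WT). The neutrophil list had a median of 0.91, with 6 of 23 past 2-fold upward, and summed to 115347 CPM in P95H and 59918 in WT. Medians were -0.69 for dendritic cell genes (5 of 14 past 2-fold downward), -0.56 for erythroid genes (3 of 20) and -0.26 for plasma cell genes (3 of 10). The dendritic cell list summed to 290 CPM in P95H and 668 in WT, a ratio of 0.434, where the Gimap sum had 0.365. In WT, 7552 of the list's 31996 reads came from H2-Ab1, 6574 from H2-Aa and 4325 from H2-Eb1. Their ratios ran from 0.281 to 0.299, whereas those of the list's other genes ran from 0.387 to 1.21. The low ratio of this sum thus rests largely on these H2 genes, which are also among the 5 past 2-fold. Whether dendritic cells alone account for it was not tested. The ratio of sums was 0.608 for the erythroid list and 0.804 for the plasma cell list. Irf4 held 9884 of the plasma list's 22585 reads in WT, at a ratio of 0.320. Jchain and Xbp1, named after their values were seen, had ratios of 1.38 and 1.33, and 6 of the 10 plasma cell genes lay below 0. Megakaryocyte genes had a median of -0.26 (1 of 15 past 2-fold upward), which was 0.05 over the 5 that reached 10 CPM in P95H, WT or both. The sum of the 15 was 519 CPM in P95H and 426 in WT. Nfe2 alone, named after its values were seen, gave 364 CPM of it in P95H and 257 in WT, a ratio of 1.41. Of the 15 genes 11 lay below 0. Monocyte and macrophage genes had a median of 0.09 (0 of 18 past 2-fold either way), which was -0.09 with plain totals.

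**Figure D4:**
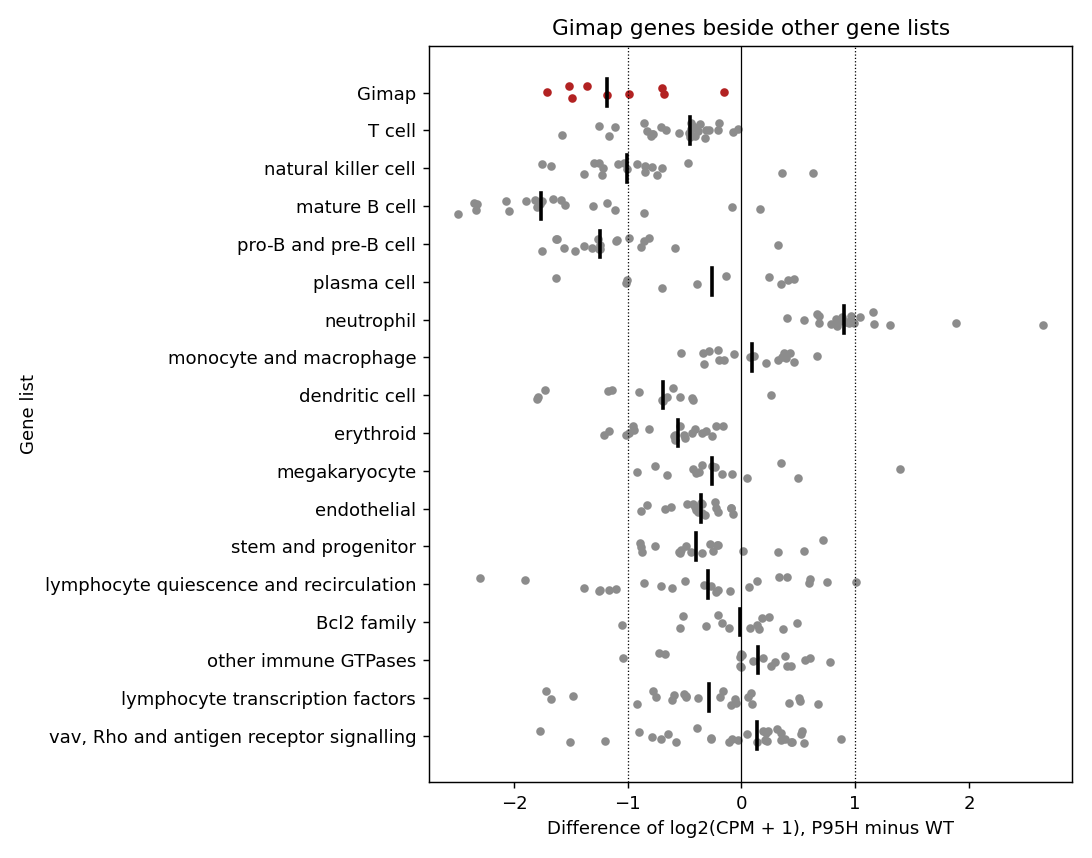
Difference of log2(CPM + 1), P95H minus WT, for each measured gene of the Gimap family (red, top) and of 17 other gene lists (grey), with a black bar at each list's median and dotted lines at 2-fold. The Gimap median is -1.18, against -0.45 for T cell, -1.00 for natural killer cell and -1.76 for mature B cell genes. With a pseudocount of 0.1 the natural killer median (-1.55) lies below the Gimap median (-1.45).

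Genes of lymphocyte quiescence and recirculation, the state in which GIMAP proteins act, lay on both sides of 0. Of 24 measured, 7 passed the 2-fold size downward, 1 upward and 16 stayed within it (median -0.30). The lymph node homing receptor gene Ccr7 had 524 reads in P95H marrow and 3286 in WT marrow, a ratio of 0.192 (0.175 to 0.211). The egress receptor gene S1pr1 had 740 reads in P95H and 3464 in WT, a ratio of 0.258 (0.238 to 0.279). Bach2, a repressor of lymphocyte activation, had 824 reads in P95H and 2670 in WT. The single gene at least 2-fold higher was Slfn2 at 1.01, a Schlafen gene that keeps T cells quiescent and that myeloid cells also express, named after its value was seen. Gabarapl2, the partner of Gimap6, had 791 reads in P95H marrow and 1120 in WT marrow, a ratio of 0.852 (0.777 to 0.934), likewise chosen after its value was seen.

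Apoptosis regulators of the Bcl2 family, some of which have been reported to bind GIMAP proteins, mostly stayed within 2-fold. So did 12364 of all 12860 genes. Of 14 measured, 1 passed the 2-fold size downward, 0 upward and 13 stayed within it (median -0.01, and 0.11 over the 12 that reached 10 CPM in P95H, WT or both). The single gene was Bmf, a BH3-only promoter of cell death, with 706 reads in P95H marrow and 1809 in WT marrow, a ratio of 0.471 (0.431 to 0.514). The other GTPase families of immunity, the interferon-induced guanylate-binding, IRG and Mx genes, mostly stayed within it too, as most of all genes did. Of 18 measured, 1 passed the 2-fold size downward and 17 stayed within it (median 0.15). This median was -0.01 with plain totals. The lower gene was the guanylate-binding protein gene Gbp9, with 447 reads in P95H and 1159 in WT, a ratio of 0.465 (0.416 to 0.519).

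Lymphocyte transcription factor genes had a median of -0.29, with 3 of 24 past 2-fold downward. They were Ikzf3, which acts in maturing B cells (1052 reads in P95H, 4280 in WT), Pou2af1, a B cell coactivator (1139 in P95H, 3929 in WT), and Eomes. Eomes exceeds 1 CPM in WT alone. Antigen receptor signalling genes had a median of 0.14 (-0.05 with plain totals), with 3 of 31 past 2-fold downward. Among these were the B cell kinase gene Blk (392 reads in P95H, 1727 in WT) and Rasgrp1, which activates Ras downstream of the T cell receptor (355 in P95H, 1305 in WT).

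Outside the family, 2996 genes had a mean CPM within 2-fold of the members' median mean of 8.78 CPM. Ordered by closeness to the difference of the summed family (-1.44), the nearest 5 were Zfp318 at -1.44, Rapgefl1 at -1.45, Klhl14 at -1.42, Wnt11 at -1.46 and Ppp3cc at -1.40. Zfp318 is the zinc finger gene required for IgD expression in B cells, and Ppp3cc encodes a catalytic subunit of calcineurin. The likeness is a single difference over 2 libraries.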

How the data were processed

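Per the labels' protocols, total RNA of unsorted bone marrow was depleted of ribosomes and turned into stranded libraries (9 PCR cycles), and both were read in one run with paired ends of 75 bp. Tools named in the submitters' processing notes, with no role given, are STAR 2.5.3a, featureCounts, edgeR, Picard 1.96, cutadapt and Trim Galore, and the build is mm9. The deposited raw counts per gene and the deposited CPM, a normalised signal, were used. The CPM columns sum to 1067265 (P95H) and 934268 (WT). All 12860 genes exceed 1 CPM in P95H, WT or both. The authors' deposited log2 fold change and fold ratio columns were not used.

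Differences were computed on log2(CPM + 1). Exact conditional binomial intervals at a 95% level came from scipy 1.17.1. With 1 library per group, 1 read was worth 0.0252 CPM in P95H and 0.0209 CPM in WT. The reads carry no molecular identifiers in these files, so intervals cover counting error only. The steps were tested on simulated counts that held counting error only, as the intervals assume. That test cannot show how far mice differ. No count model was fitted, since 1 library per genotype gives no spread between mice.

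The members and the 17 gene lists were chosen with earlier results of these data known. Text names every Gimap gene, up to 4 genes per list with the largest absolute difference (in the Bcl2 and other GTPase lists, those past 2-fold), the nearest measured neighbours and the 5 most alike genes. A gene that this rule names in the antigen receptor signalling list is not reported here. Any other gene is marked in the text as picked with its values in view. Sequences, exon lengths and gene order come from RefSeq GRCm38.p6 and GENCODE M21, a build other than the authors', and RefSeq matched 12531 of the Entrez numbers (97.4%). Alternatives were pseudocounts, scalings, a filter on low values, fold sizes, means and left-out members.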

Additional observations from a re-analysis of the deposited data

How the results depend on the processing

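The summed Gimap difference was -1.44. It was -1.63 with plain totals, -1.58 once haemoglobin and the most abundant genes were left out of the totals, -1.22 without Gimap6, the member with the most counts, and -1.62 without Gimap9, an alternative chosen after seeing the data. The median over members was -1.45 with a pseudocount of 0.1 and -0.82 with a pseudocount of 5. The number of Gimap genes at least 2-fold lower was 8 with a pseudocount of 0.1, 2 with a pseudocount of 5, 8 at a 1.5-fold size and 8 by the plain CPM ratio (chosen after seeing the data), in place of 5. Each count of 8 includes Gimap7 and Gimap1os, which exceed 1 CPM in WT alone. In 45 of 45 values of single Gimap genes under the pseudocounts and scalings the difference stayed below 0. This was fixed beforehand and is no check of direction. A pseudocount cannot change the sign, and the other totals moved the median of all genes down, to -0.18 and -0.13. Centring on the median of all genes, -0.0035, hardly moved any value.

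Among all genes, 593 were lower and 367 higher with a pseudocount of 0.1, 107 lower and 125 higher with a pseudocount of 5, 1039 lower and 906 higher at 1.5-fold, and 642 lower and 392 higher by the plain CPM ratio, in place of 270 lower and 226 higher. Plain totals gave 463 lower and 134 higher, so that 22.4% of called genes were higher in place of 45.6%, and moved the median of all genes to -0.18. Leaving haemoglobin and the most abundant genes out of the totals gave 477 lower, with 27.2% of called genes higher and a median of -0.13. With a CPM of at least 10 in at least 1 library, 154 were lower and 163 higher. The natural killer median was 0.35 under that filter, which left 3 of its 19 genes.

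The sum without the pair of most alike proteins was not run, as no protein table was used. Leaving out the pair with the most shared read-length windows, Gimap3 and Gimap5, gave a summed difference of -1.44, and leaving out Gimap1os gave -1.44 and a median of -1.27, both chosen after seeing the data. No paired analysis was possible because each group has 1 library. Low counts limit Gimap5, Gimap7 and Gimap1os.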
